A study of Mus musculus with 12 samples.

Results

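Cell cycle and mitosis genes were examined in bulk RNA-seq of mouse tongue, as 49 listed genes of 32498 rows with a gene name in the deposited tables. The 49 genes were taken by symbol, and each was found on a single row in all 12 libraries. They were split by role into 15 DNA replication genes, 5 G1 cyclins and cyclin-dependent kinases (CDKs), 26 mitotic genes and 3 transcription factors. All 12 mice were C57BL/6 and bought at 5 weeks of age. All had received 4-nitroquinoline 1-oxide (4NQO), a carcinogen that gives tongue lesions, at 100 µg/mL in drinking water during 16 weeks. From week 4 onward, 6 mice were gavaged with gallic acid (GA) at 100 mg/kg on 5 days per week, and 6 received vehicle on the same schedule. No library of tongue without 4NQO was analysed here, so every level below is a level in carcinogen-exposed tongue. The labels describe the tissue as tumor and tumor-associated tongue and do not tell lesion from surrounding tissue, and each library was taken as 1 mouse because the labels give replicate numbers only.

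A dividing cell first commits to a cycle through D- and E-type cyclins with their CDKs, then copies its DNA in S phase, then builds a spindle and separates its chromosomes in mitosis. Genes for DNA replication are switched on by E2F factors at the border of G1 and S phase. Genes for mitosis are switched on later, in G2, through MYBL2 and FOXM1 acting with the MuvB complex at a promoter element named CHR. The letters CCAAT, a separate promoter element, were searched below as well. In the stratified epithelium that covers the tongue, dividing cells lie in and just above the basal layer, which makes the keratins KRT5, KRT14 and KRT15. In bulk tissue, fewer dividing cells and less of a transcript per dividing cell cannot be told apart.

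Library totals, recovered from the steps between low FPKM values, were 18040288 to 21770505 reads in the vehicle group and 21237632 to 25192663 reads in the GA group, with medians of 21129702 and 23684727. Each member had at least 46 reads in every library, so all 49 passed the filter on low values. Levels below are scaled FPKM (reads divided by gene length and library total, then scaled between libraries), a unit per gene length that allows levels of different genes to be set side by side. A library's level of a gene list is the mean of log2(scaled FPKM + 0.1) over its genes. Vehicle libraries 3 and 5 and GA library 2 held serous gland transcripts, with the gland lipase Lipf at 8765 FPKM or more in these 3 and at most 0.508 FPKM in the other 9. Reads on Y-linked genes were present in 4 of 6 vehicle and 1 of 6 GA libraries. Epithelial and muscle markers were present throughout: all 3 basal keratins were above 0 in all 12 libraries, and so were 11 of 12 skeletal muscle markers.

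Among the DNA replication genes, Pcna stood highest, with a mean over the 12 libraries of 30.6 scaled FPKM. Pcna encodes the clamp that holds DNA polymerase on its template. The MCM genes, which encode the subunits of the replicative helicase, lay lower, from Mcm2 at 4.34 to Mcm5 at 11.3 scaled FPKM. Ribonucleotide reductase, which makes deoxynucleotides, was represented by Rrm1 at 7.36 and Rrm2 at 10.3 scaled FPKM, and thymidylate synthase (Tyms) stood at 2.28. The lowest means belonged to Cdc6, which loads the helicase at origins, at 0.900 and to Gins2 at 1.32 scaled FPKM, and 67.3% of the exon bases of Gins2 overlap another gene. The ratio of the highest to the lowest library ran from 1.76 for Pcna to 4.40 for Uhrf1, a factor that copies DNA methylation to new strands. GA library 1 was the lowest library for 10 of the 15 genes and GA library 6 the highest for 10, with Vehicle library 4 the highest for the other 5. The lowest library was Vehicle library 1 for 3 genes, and Vehicle library 3 and GA library 4 for 1 gene each. The level of the whole list had both extremes in the GA group, at 1.85 in GA library 1 and 3.29 in GA library 6.

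Of the G1 genes, Cdk4 (32.1 scaled FPKM) and its partner cyclin D1, Ccnd1 (17.3), were abundant, whereas Ccne1, Ccne2 and Cdk2, which act later at the start of S phase, had means of 4.18, 2.16 and 3.01. Ccne1 varied most among all 49 genes, by 4.89-fold between GA library 4 and GA library 6, and Cdk4 varied least, by 1.70-fold. Parts of the exon bases of Cdk4 (19.7%), Ccnd1 (23.4%) and Ccne2 (17.4%) overlap other genes, and whether reads were counted by strand is not given in the sources used here.

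Among the mitotic genes, Cdc20, the activator of the anaphase-promoting complex, was the most abundant at 31.7 scaled FPKM. Its level, that of Cdk4 and that of Pcna differed by less than their spread between libraries. Mki67, which encodes the proliferation antigen Ki-67, followed at 17.3, Top2a (a topoisomerase that untangles chromosomes) at 15.6, the B-type cyclin Ccnb2 at 14.6 and Ube2c (the ubiquitin-conjugating enzyme of the anaphase-promoting complex) at 13.1 scaled FPKM. The lowest was Cdc25c, a phosphatase that activates CDK1, with a range over the libraries of 0.703 to 2.21. Vehicle library 4 was the highest library for 18 of the 26 genes and GA library 2 the lowest for 16. GA library 1, the lowest library for most replication genes, was the lowest for no mitotic gene. The factors E2f1, Foxm1 and Mybl2 had means of 2.50, 4.06 and 3.31 scaled FPKM, and all 3 were highest in Vehicle library 4.

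**Figure D1:**
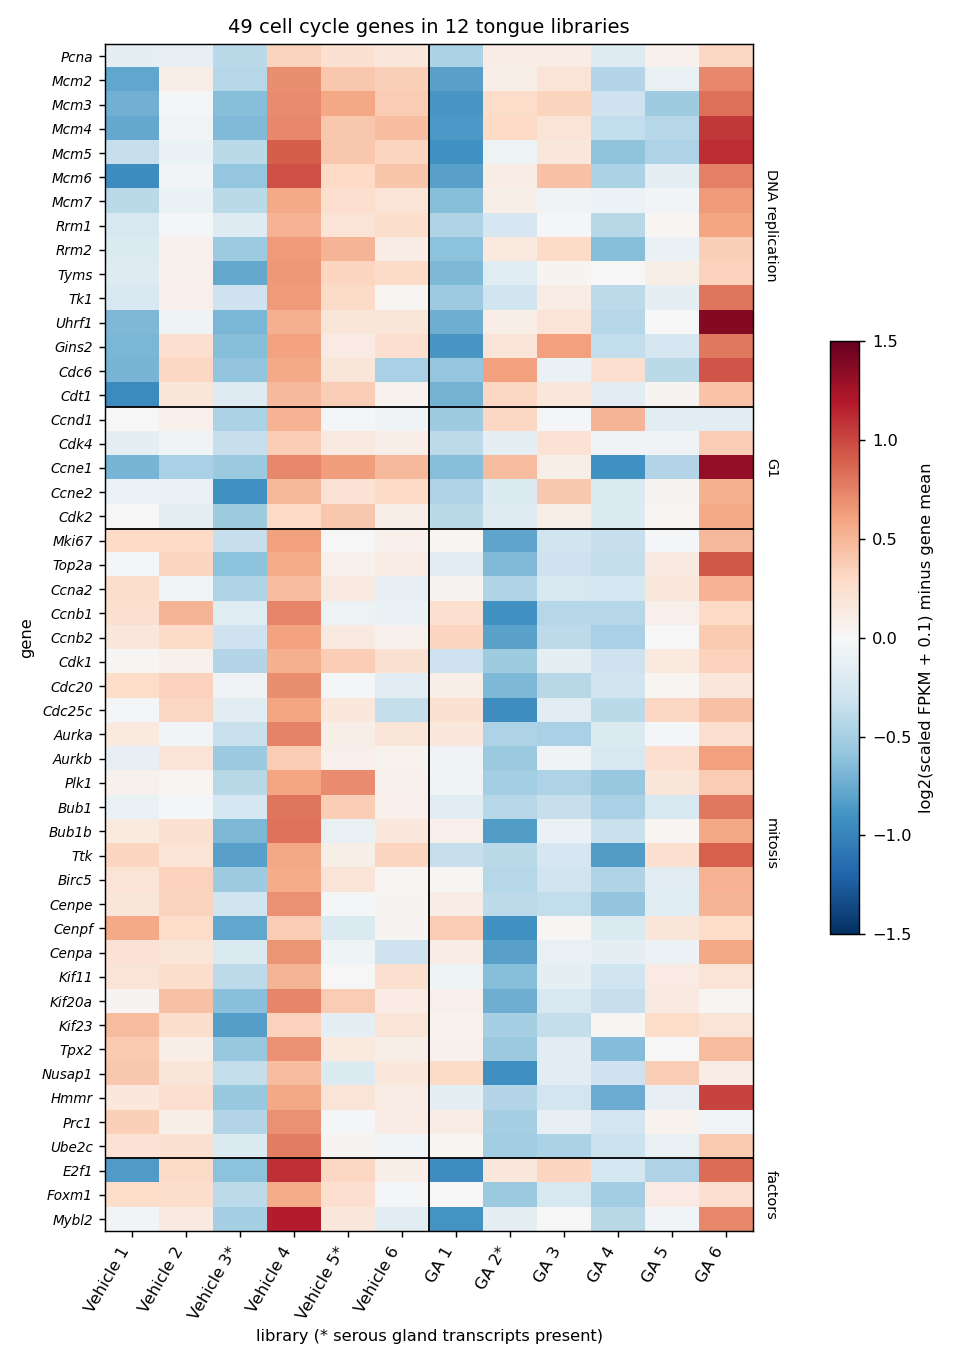
Heat map of the 49 genes (rows, by role) in the 12 libraries (columns, vehicle left and GA right; asterisks mark libraries with serous gland transcripts). Colour is log2(scaled FPKM + 0.1) minus the gene's mean over the 12 libraries. Vehicle library 4 and GA library 6 are high in most rows, whereas Vehicle library 1 and GA library 1 are low in replication rows and near the mean in most mitotic rows.

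The genes varied together within a role more than between roles. Over the 12 libraries, the median Pearson r between pairs of replication genes was 0.87 (105 pairs, 0.50 to 0.98), and between pairs of mitotic genes it was 0.82 (325 pairs, 0.44 to 0.98). Between a replication and a mitotic gene the median r was 0.39 (390 pairs, -0.29 to 0.88). Without the 3 gland-bearing libraries the 3 medians were 0.89, 0.80 and 0.44. These correlations are descriptions over 12 libraries, and all pairs share the same libraries and scaling. At the level of lists, the G1 genes followed the replication genes (r = 0.95, Spearman rho = 0.97) more closely than the mitotic genes (r = 0.51 and rho = 0.51), and replication and mitotic levels had r = 0.46 and rho = 0.46. The 3 factors had r = 0.90 with the replication level and 0.72 with the mitotic level.

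The distance between mitotic and replication levels differed widely among libraries. The mitotic level was above the replication level by 0.81 on the log2 scale in Vehicle library 1 and by 0.84 in GA library 1. It was 0.64 below it in GA library 2 and 0.35 below it in GA library 3. In the vehicle group this difference was 0.18 ± 0.34 (SD, n = 6), and in the GA group it was -0.007 ± 0.53 (SD, n = 6), so the groups overlapped over most of their range. The mitotic level was lower where skeletal muscle and gland transcripts were higher: its r was -0.67 with the muscle list and -0.60 with the gland list. Summed muscle markers ran from 1328 to 11200 scaled FPKM in the vehicle group and from 1922 to 8576 in the GA group. Summed gland markers (all 8 in the files, 3 of them above 0 in all libraries) ran from 2.19 to 29930 and from 2.59 to 34610. Within the vehicle and GA groups, r was -0.76 and -0.67 with muscle and -0.73 and -0.72 with gland. Without the 3 gland-bearing libraries it was -0.34 with muscle and -0.59 with gland. Without the 2 libraries farthest from the median of each list, it was -0.65 with muscle and -0.12 with gland. The replication level had r = -0.24 with muscle and -0.09 with gland. The part of muscle and gland content in the mitotic level was not tested.

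**Figure D2:**
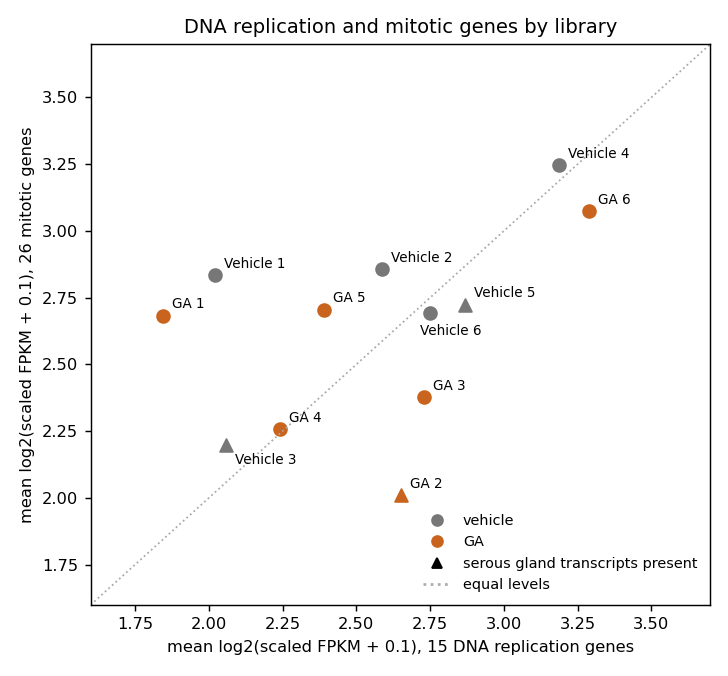
Mean log2(scaled FPKM + 0.1) of 15 DNA replication genes (x axis) and of 26 mitotic genes (y axis) in each library (grey, vehicle; orange, GA; triangles, serous gland transcripts present; dotted line, equal levels). Vehicle library 1 and GA library 1 lie above the line by 0.81 and 0.84, and GA library 2 lies 0.64 below it.

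The genes outside the 49 that followed the mitotic level most closely were themselves mostly genes of cell division. Among the 12100 other genes that averaged 1 FPKM or more, the 10 with the highest r over the 12 libraries were Arhgap11a, Ect2, Kif22, Cks2, Anln, Kif20b, Kif14, Cdca8, Tacc3 and Smc4, with r from 0.97 down to 0.94. Of these 10, 8 were on the list of other mitotic genes, and Arhgap11a (r = 0.97) and Kif20b (r = 0.96) were on no list used here. Ect2 and Anln act in cytokinesis, Cdca8 is a subunit of the chromosomal passenger complex, and Smc4 is a subunit of condensin.

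Since replication and mitotic genes varied apart, their promoter sequences were set side by side. RefSeq windows of GRCm38.p6, from 250 bases before to 50 bases after each transcript start, were found for 39 of the 49 genes (42 windows). The E2F letters searched were TTTGGCGC, TTTCCCGC, TTTGCCGC and TTTCGCGC, the CHR letters TTTGAA and TTTAAA, and the CCAAT letters CCAAT, all on both strands. The 15 replication windows belonged to 13 genes and the 22 mitotic windows to 21 genes. E2F letters were in 7 of 15 replication windows (46.7%) and in 1 of 22 mitotic windows (4.55%), beside 2.26% of all 32851 windows. CHR letters were in 20 of 22 mitotic windows (90.9%) and 5 of 15 replication windows (33.3%), beside 27.6% of all windows. CCAAT letters were in 20 of 22 mitotic windows (90.9%) and 11 of 15 replication windows (73.3%), beside 37.4% of all. The windows of E2f1 and Mybl2 held none of the 3, and Foxm1 was not matched. A match is a description of the letters in a window, not a site that is known to be bound. Only these exact letters were searched, so a window without a match may still hold a variant of the element.

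The 180 bases just upstream of the start are shown for 5 genes, a replication pair, a mitotic pair and a factor. The difference between roles is not seen in every gene: Mcm2 holds the same kinds of letters, CHR and CCAAT, as Ccnb2 and Cdc20. Capitals mark the searched letters, and positions count back from -1, the last base before the start. Mcm5 (chr8:75109329-75109508, + strand) holds TTTCGCGC from -153 and, overlapping it by 4 bases, GCGCCAAA from -149, which run together in the print, and CCAAT from -77 and -22. Outside the printed stretch, the Mcm5 window also holds TTTAAA from -221 and CCAAT from position 7 after the start. Mcm2 (chr6:88898781-88898960, - strand) holds no E2F letters but ATTGG from -175, which is CCAAT on the other strand, and TTTGAA from -70. Ccnb2 (chr9:70421555-70421734, - strand) holds TTTGAA from -167 and CCAAT from -87, -54 and -21, a repeated CCAAT spacing. Another TTTGAA of its window lies from position 5, after the start and outside the printed stretch. Cdc20 (chr4:118437344-118437523, - strand) holds CCAAT from -53 and -8 and TTTGAA from -18, and its last 9 bases, with the CCAAT from -8, lie inside the gene as GENCODE M21 places it. Mybl2 (chr2:163054455-163054634, + strand) holds none of the exact letters searched.
Mcm5: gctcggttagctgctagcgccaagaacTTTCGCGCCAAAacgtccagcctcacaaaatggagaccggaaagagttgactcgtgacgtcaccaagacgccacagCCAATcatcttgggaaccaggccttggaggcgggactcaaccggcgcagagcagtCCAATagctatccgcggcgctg
Mcm2: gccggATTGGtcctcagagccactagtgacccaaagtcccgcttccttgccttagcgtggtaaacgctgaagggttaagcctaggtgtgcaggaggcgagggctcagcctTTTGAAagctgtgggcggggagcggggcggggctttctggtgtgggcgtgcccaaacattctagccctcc
Ccnb2: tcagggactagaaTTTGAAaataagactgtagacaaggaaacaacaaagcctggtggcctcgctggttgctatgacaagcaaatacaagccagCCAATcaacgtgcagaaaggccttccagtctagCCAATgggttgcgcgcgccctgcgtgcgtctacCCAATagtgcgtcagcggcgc
Cdc20: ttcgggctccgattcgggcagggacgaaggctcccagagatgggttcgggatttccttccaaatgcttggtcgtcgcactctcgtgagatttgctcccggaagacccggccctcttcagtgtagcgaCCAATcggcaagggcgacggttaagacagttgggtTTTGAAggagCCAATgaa
Mybl2: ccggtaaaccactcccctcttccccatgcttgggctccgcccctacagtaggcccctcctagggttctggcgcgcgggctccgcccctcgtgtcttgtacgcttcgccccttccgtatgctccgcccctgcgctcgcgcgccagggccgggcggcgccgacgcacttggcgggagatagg

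Whether the cell cycle genes followed the basal layer was examined with the 3 basal keratins, which did not move as a unit. Krt5 was lowest in GA library 1 (923 scaled FPKM) and highest in GA library 6 (3070). Krt14 was likewise lowest in GA library 1 (1220) and highest in GA library 6 (8021), whereas Krt15 was lowest in GA library 6 (85.3) and highest in GA library 5 (902). Over the 12 libraries, r was 0.86 between Krt5 and Krt14, -0.55 between Krt5 and Krt15 and -0.78 between Krt14 and Krt15. Their mean log2 level, the measure chosen for this comparison, therefore combined opposite patterns.

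Against that mean, all 49 genes had a slope above 0, and the median slope (log2 units per log2 unit of keratin) was 0.83 for replication genes and 0.68 for mitotic genes, beside 0.079 over the 16844 genes tested. With limma and Benjamini-Hochberg adjustment, 0 of the 49 genes and 0 of all genes (0%) had an adjusted p below 0.1, the smallest adjusted p being 0.157. At an unadjusted p below 0.05 there were 20 members with a positive slope (5 replication, 3 G1 and 12 mitotic genes), beside 11.2% of all genes, also with a positive slope. Counted in either direction, the share of all genes was 21.9%. With the muscle level as a covariate it was 3.34%, with 6 members. Without the 3 gland-bearing libraries it was 6.71%, with 11 members. The part of muscle and gland content in these slopes was not tested. On FPKM as deposited, 9 members were called, beside 7.12% of all genes in either direction. For 4 genes the correlation with the mean keratin level was tested by permutation over the 12 libraries (100000 resamples, two-sided), with p-values adjusted over these 4 relations. Mki67 had r = 0.59 (permutation p = 0.0428, adjusted 0.0696) and rho = 0.44 (permutation p = 0.155, adjusted 0.206). Top2a had r = 0.59 (permutation p = 0.0427, adjusted 0.0696) and rho = 0.37 (permutation p = 0.239, adjusted 0.239). Neither relation held without the 2 libraries farthest from the median keratin level, Vehicle library 3 and GA library 2, both gland-bearing: r was then 0.17 for Mki67 and 0.21 for Top2a, so these relations rest on those libraries. Pcna had r = 0.57 (permutation p = 0.0522, adjusted 0.0696; rho = 0.48, permutation p = 0.122, adjusted 0.206) and Mcm2 had r = 0.48 (permutation p = 0.114, adjusted 0.114; rho = 0.47, permutation p = 0.128, adjusted 0.206). Without the same 2 libraries their r was 0.71 and 0.61. Within the vehicle group r was 0.67, 0.79, 0.84 and 0.58 for Mki67, Top2a, Pcna and Mcm2, and within the GA group it was 0.44, 0.45, 0.34 and 0.36.

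With Krt5 alone as the measure, most replication genes and few mitotic genes were called. In all, 24 of the 49 genes were called at an adjusted p below 0.1 in limma with Benjamini-Hochberg adjustment (49%), all with a positive slope. Of all genes, 8.48% were called with a positive slope and 14.6% in either direction. The 24 comprised 13 of 15 replication genes, 4 of 5 G1 genes, 2 of 3 factors and 5 of 26 mitotic genes (Top2a, Cdk1, Bub1, Ttk and Hmmr). The steepest slopes were those of Ccne1 (1.16 ± 0.24 SE, limma adjusted p = 0.0215), Mcm5 (1.07 ± 0.17 SE, limma adjusted p = 0.00973) and Mcm4 (1.00 ± 0.21 SE, limma adjusted p = 0.0219), whereas Mki67 had 0.41 ± 0.20 (limma adjusted p = 0.214), Ccnb1 0.22 ± 0.25 and Cdc20 0.16 ± 0.21. The median slope was 0.67 for replication and 0.35 for mitotic genes, and this difference between the roles was not tested. Ccnd1 was the least steep G1 gene, with 0.10 ± 0.19.

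These calls depended on GA library 6. Shares of all genes in this paragraph count slopes in either direction unless stated. Without it, 0 of the 49 genes and 13 of all genes (0.0772%) were called on Krt5, while 15 of 15 replication and 26 of 26 mitotic slopes stayed above 0 with medians of 0.73 and 0.35. Without GA library 1, 10 members were called, beside 4.5% of all genes. Without the 3 gland-bearing libraries 12 were called, 9 of them replication genes, beside 7.21% of all genes. On Krt14 alone, 13 members were called (9 replication genes, 2 G1 genes, Bub1 and E2f1), all of them also among the 24 called on Krt5. All had a positive slope, beside 6.52% of all genes called with a positive slope and 12.7% called in either direction. Without GA library 6, 0 members were called on Krt14, beside 1.73% of all genes. Without GA library 1, 2 members were called, no larger a share than the 5.29% of all genes. On Krt15 alone 0 members were called, beside 4.35% of all genes in either direction. The choice to test each keratin alone in this detail was made after the data were seen. Other basal epithelial genes (8 on the list, such as Trp63 and Itga6) had r = 0.89 with the replication level and 0.60 with the mitotic level, and suprabasal and cornified genes had r = -0.62 and 0.05. Without GA library 6 and Vehicle library 4, the r of the other basal genes was 0.78 with the replication level and 0.09 with the mitotic level.

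**Figure D3:**
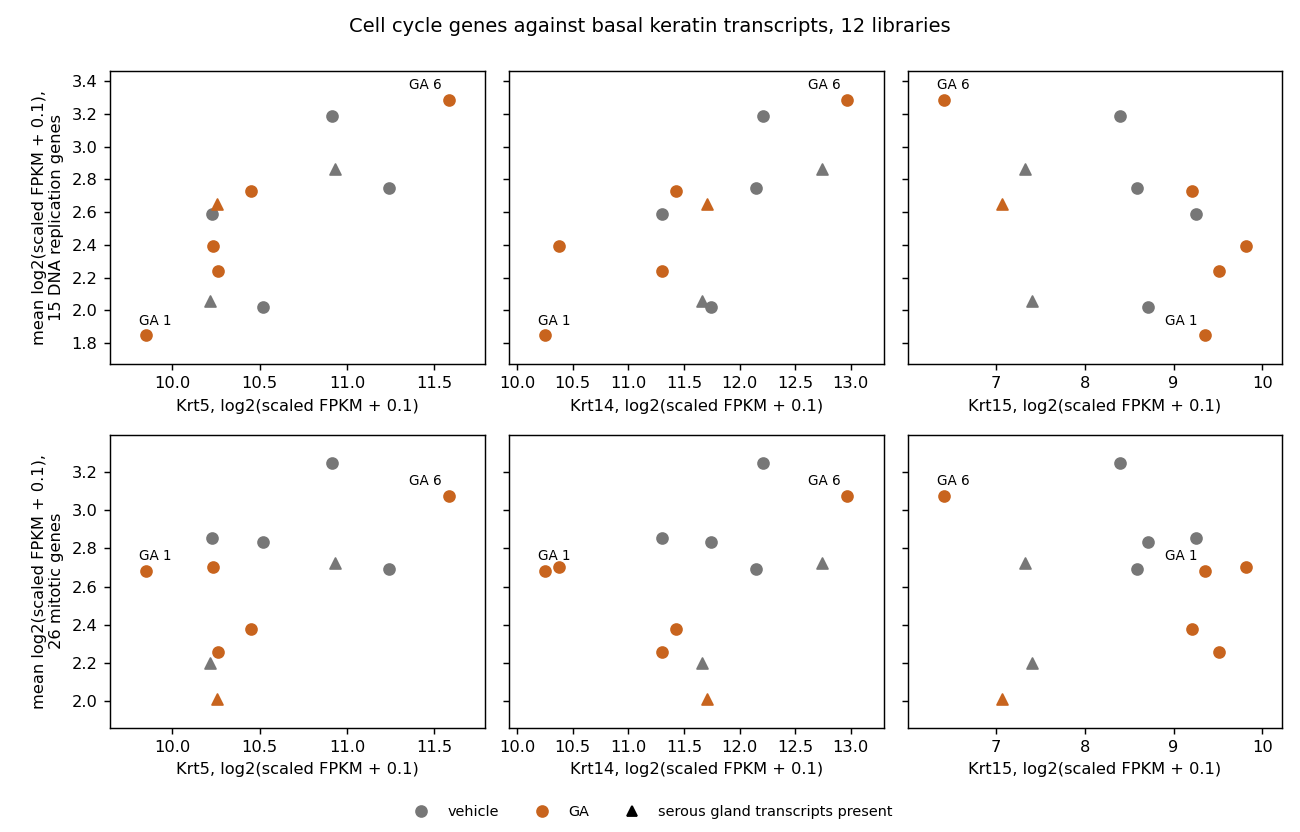
Mean log2(scaled FPKM + 0.1) of the 15 DNA replication genes (upper row) and the 26 mitotic genes (lower row) against the log2 level of Krt5, Krt14 and Krt15 in each library (grey, vehicle; orange, GA; triangles, serous gland transcripts present). GA library 1 and GA library 6 mark the low and high ends of Krt5, Krt14 and the replication level, and the order is turned round for GA library 6 in Krt15.

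GA was then compared with vehicle gene by gene. No cell cycle gene was called, at an adjusted p below 0.1 and an absolute log2 difference of at least 0.58 (the limits of the study's methods). With limma and Benjamini-Hochberg adjustment, 0 of 49 members and 0 of 16847 genes tested (0%) met these limits, and every member had an adjusted p of 0.99996. At an unadjusted p below 0.05 there were 0 members, beside 364 of all genes (2.16%), and limma-voom on the recovered reads also gave 0 members by either limit. The groups overlapped for all 49 genes. On average the mitotic genes were lower with GA: all 26 had a negative log2 difference (GA minus vehicle) with a median of -0.26, and 44 of the 49 genes did so, beside 49% of all genes tested, whose median was 0.004. Because these genes vary together, 26 negative values are not 26 separate observations. The group means of several lists of cell type markers lay apart as well, with 0 genes called. Lower with GA were 10 of 10 tested neutrophil markers (median log2 difference -0.82), 4 of 4 hyperplasia keratins (-0.64), 6 of 6 fibroblast markers (-0.35) and 8 of 8 other basal epithelial markers (-0.18), and also 5 of 5 serous gland markers (-1.47). Higher were 8 of 11 tested skeletal muscle markers (0.34) and 5 of 5 endothelial markers (0.14). The remaining marker lists were mixed in direction. Lower were 2 of 8 tested T cell (median 0.039), 6 of 10 suprabasal and cornified (-0.070) and 5 of 7 macrophage markers (-0.12). Of B and plasma cell markers 2 of 5 tested were lower (0.60), and of basal keratins 2 of 3 (-0.24). Summed neutrophil markers ran from 1192 to 2618 scaled FPKM in the vehicle group and from 235 to 1953 in the GA group, and summed hyperplasia keratins from 11140 to 24680 and from 4651 to 23640. A sum follows its most abundant markers and does not show neutrophil content in every library. Csf3r, also on the neutrophil list, had 0.030 scaled FPKM in Vehicle library 1 and 16.0 in Vehicle library 5. The mean log2 level of the neutrophil list ran from -0.02 to 3.95 in the vehicle group and from -0.13 to 3.06 in the GA group. With the neutrophil level as a covariate the mitotic median was -0.28, with the muscle level it was -0.25, and with the basal keratin level it was -0.14. The part of any of these cell types in the mitotic values was not tested, be it neutrophil, muscle, gland, hyperplasia keratin, fibroblast, basal epithelial or endothelial content. The replication genes had a median of -0.039, with 11 of 15 below 0, and the G1 genes lay between -0.044 for Cdk2 and 0.026 for Ccne2.

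Of the mitotic genes, Cdc20 (chr4:118432901-118437352 of GRCm38) had the smallest p of all members. Its vehicle libraries had 27.6 (lowest), 33.8 (median) and 49.95 (highest) scaled FPKM, and its GA libraries had 19.3, 28.2 and 34.6. The vehicle median lay above 5 of 6 GA libraries, and the highest GA library still lay above 3 of the vehicle libraries. Its log2 difference was -0.36 ± 0.18 (SE; limma p = 0.0635, adjusted p = 0.99996; exact permutation test, two-sided p = 0.0887). For Ccnb1, the regulatory partner of CDK1, the vehicle libraries had 9.52, 11.5 and 18.01 and the GA libraries 5.70, 9.67 and 13.3 scaled FPKM. Its difference of -0.38 ± 0.23 (SE) was the most negative of the 49 (limma p = 0.120; exact permutation p = 0.152). Ube2c, with -0.34 ± 0.19 (SE), had the second smallest p (limma p = 0.0933; exact permutation p = 0.119), and 22.8% of its exon bases overlap the muscle gene Tnnc2.

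Mki67 (chr7:135689784-135716361), the transcript of the Ki-67 antigen, had 13.15 (lowest), 19.15 (median) and 25.8 (highest) scaled FPKM in vehicle libraries and 9.65, 15.1 and 23.5 in GA libraries. Of the GA libraries, 5 of 6 lay below the vehicle median, with GA library 6 above it. The means were 19.1 ± 4.31 (SD, n = 6) and 15.6 ± 4.70 (SD, n = 6), and the log2 difference of -0.31 ± 0.21 (SE) was within the spread between libraries (exact permutation test, two-sided p = 0.182). Top2a, with 16.0 ± 4.04 against 15.1 ± 6.89 (SD, n = 6 each; exact permutation p = 0.634), had a smaller difference, and GA library 6 held the highest level of all 12 libraries, 28.4 scaled FPKM. Cdk1 (-0.26 ± 0.18 SE), Birc5 or survivin (-0.27 ± 0.20 SE) and the spindle kinase Aurka (-0.26 ± 0.18 SE) had exact permutation p-values of 0.201, 0.232 and 0.212. Ccna2, a cyclin of both S phase and G2, had -0.079 ± 0.19 (SE; exact permutation p = 0.697). The smallest mitotic difference was that of Aurkb, a kinase of the chromosomal passenger complex, with means of 6.80 and 6.83 scaled FPKM in the vehicle and GA groups and a log2 difference of -0.013 ± 0.20 (SE). Kif11 and Kif20a, kinesins of the spindle and midzone, were the mitotic genes with 6 of 6 GA libraries lower than the vehicle median, with exact permutation p-values of 0.154 and 0.158. The share of all genes with 6 of 6 GA libraries below that median is not given here.

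Replication genes showed no common direction. Pcna had 22.7 (lowest), 30.9 (median) and 38.0 (highest) scaled FPKM in vehicle libraries and 21.6, 32.0 and 37.4 in GA libraries, nearly the same range. Its log2 difference was -0.025 ± 0.16 (SE; exact permutation test, two-sided p = 0.879). Mcm5 had the most negative value of this role, -0.26 ± 0.32 (SE; exact permutation p = 0.474), with 7.78, 11.3 and 19.6 scaled FPKM in vehicle and 5.49, 8.65 and 22.4 in GA libraries. In Mcm5 the GA group held both the lowest and the highest of the 12 libraries. Cdc6 had the highest value, 0.24 ± 0.31 (SE; exact permutation p = 0.474). Mcm2 (-0.12 ± 0.29 SE), Rrm2 (-0.19 ± 0.23 SE) and Tyms (-0.12 ± 0.24 SE) had exact permutation p-values of 0.712, 0.457 and 0.632. For G1 genes the same test gave 0.933 for Ccnd1, 0.916 for Cdk4 and 0.948 for Ccne1, whose differences were -0.021, -0.021 and -0.034.

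Among the factors, Foxm1, which drives mitotic genes, had 2.98, 4.75 and 5.86 scaled FPKM in vehicle and 2.66, 3.65 and 4.71 in GA libraries, and the vehicle median lay above 6 of 6 GA libraries (log2 difference -0.31 ± 0.19 SE, exact permutation p = 0.139). E2f1 had -0.10 ± 0.35 (SE; exact permutation p = 0.784). Mybl2 had -0.25 ± 0.29 (SE; exact permutation p = 0.446), and its highest library, Vehicle library 4 with 7.09 scaled FPKM, stood apart from a vehicle median of 3.20.

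**Figure D4:**
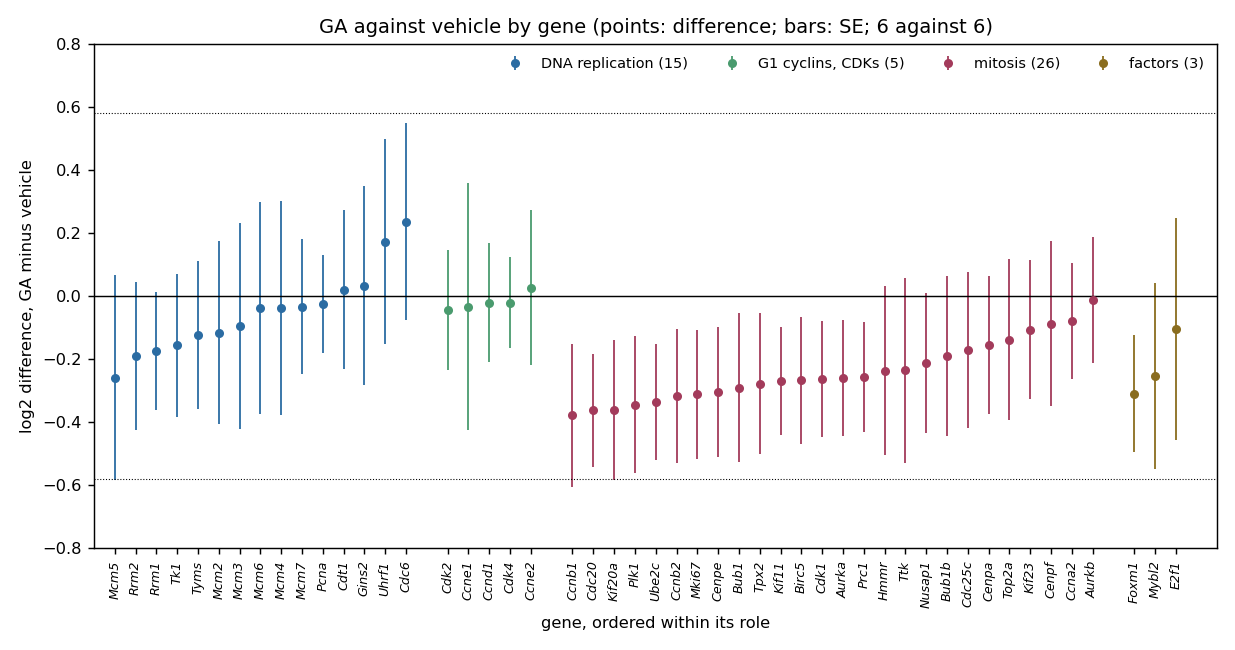
Log2 difference (GA minus vehicle, 6 against 6 libraries) of each of the 49 genes, grouped by role and ordered within it; bars are standard errors and dotted lines mark 0.58 in either direction. All 26 mitotic points lie below 0, between -0.38 and -0.013, while replication points lie on both sides.

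The size of these averages depended on the libraries and covariates. The mitotic median ran from -0.38 without GA library 6 to -0.14 with the basal keratin level as a covariate, and at least 20 of the 26 genes stayed below 0 in all 28 alternatives. The replication median ran from -0.33 with a covariate for the presence of Y-linked reads (a sex term) to 0.10 with the basal keratin level as a covariate, so its direction was not settled. With the sex term the mitotic median was -0.18, so the roles then changed order. With the gland level as a covariate 10 members had an unadjusted p below 0.05 (9 mitotic genes and Foxm1, smallest limma adjusted p = 0.952), beside 3.34% of all genes in that fit. Without Vehicle library 3 there were 7 members, beside 4.77% of all genes, and without GA library 6 also 7, beside 4.99%, all with a lower mean level with GA.

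Lists of other genes of the same pathways were read from the same fit, again with 0 genes called. Of 50 other mitotic genes, 46 were lower with GA (median log2 difference -0.16), and of 40 other replication genes, 19 were lower (median 0.017), beside 49% of all genes. Over the same 12 libraries these 2 lists had r = 0.98 with the mitotic and 0.99 with the replication members, so they are not separate observations. The smallest p-values in these lists were those of Cdc25b, a phosphatase that activates CDK1, with -0.26 ± 0.15 (SE; exact permutation p = 0.132), and of Pold2, a subunit of DNA polymerase delta, with 0.30 ± 0.16 (SE; exact permutation p = 0.0909). Of 10 CDK inhibitors and pocket proteins, the brakes of the G1 step, 4 were lower and 6 higher (median 0.049). Cdkn1a, which encodes p21, had 80.4 ± 27.5 against 88.7 ± 16.2 scaled FPKM (SD, n = 6 each; exact permutation p = 0.409), and Rbl2 had the smallest p of the list (exact permutation p = 0.284). Of 17 other cyclins, CDKs and E2F factors, 8 were lower and 9 higher. Ccnd2, a cyclin of the G1 step, was the only gene on these 4 lists at an unadjusted p below 0.05, with 9.87 ± 1.58 in vehicle and 12.1 ± 1.68 in GA libraries (SD, n = 6 each; log2 difference 0.29 ± 0.13 SE, limma p = 0.0368, adjusted p = 0.99996; exact permutation p = 0.0281).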

How the data were processed

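Tongue RNA of 6 vehicle and 6 GA mice was sequenced, and the authors used HISAT2 (mm10) for alignment and featureCounts for gene counts of uniquely mapped reads. Their deposited unit is FPKM, and the annotation, the FPKM step and the strand setting are not given in the sources used here. Rows without a gene name (41.4% of 55463) were left out. Reads were recovered from FPKM steps with GENCODE M21 exon lengths less 17.04 to 24.19 bases. Between 97.8% and 98.3% of low values were whole within 0.02. Libraries were brought to one scale by unweighted TMM, the trimmed mean of log ratios (30% and 5% trims, factors 0.9135 to 1.0849). The 16847 genes averaging 0.1 FPKM or more were fitted with limma 3.58.1 (R 4.3.3, trend) on log2(scaled FPKM + 0.1), which understates changes of low genes, and calls needed a Benjamini-Hochberg adjusted p under 0.1 with a log2 difference of 0.58 or more in size. The study's methods name edgeR on counts, which does not suit FPKM. Single genes were tested over all 924 assignments of 6 of 12 libraries (smallest possible p 0.00216). Slopes on keratins used the same fit without the 3 keratins. Motif letters were searched in RefSeq windows; Ccnb1 was not printed because 84 bases of its stretch lie inside the gene in GENCODE, against 9 for Cdc20.

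The members, gene lists and named genes were chosen with earlier results of these data known. Named in full were 19 fixed members, the highest and lowest difference of each role and the 3 smallest p-values; of other genes, the basal keratins, the smallest p of each pathway list and the 10 genes most like the mitotic level. Single-keratin alternatives were added after seeing the data, as were Kif11, Kif20a and Cdkn1a. The labels do not say whether the same replicate number pairs 2 libraries, and the main fit treated them as unpaired. The p-values measure the spread between these libraries. The limma fits were tested on simulated data.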

Additional observations from a re-analysis of the deposited data

Results flagged for a closer look

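In 106 sets of 6 libraries (49 genes and 4 role levels in each group), a single library stood far from the other 5 in 3 sets (2.83%), where chance gives about 5%. On log2(scaled FPKM + 0.1), the gap to the nearest library, as a share of the group's whole range, was 0.747 for Bub1 in the GA group, where GA library 6 was highest (4.73 scaled FPKM against a median of 2.19). It was 0.646 for Hmmr, also with GA library 6 highest (7.63 against a median of 3.24). It was 0.649 for Ttk in the vehicle group, where Vehicle library 3, a gland-bearing library, was lowest (1.31 against a median of 2.90). Bub1 and Ttk encode kinases of the spindle checkpoint, and Hmmr encodes a spindle-associated protein.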

How the results depend on the processing

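With 28 alternative fits, 0 members were called for GA against vehicle, also at unadjusted p below 0.1 with the same log2 limit, which called 328 genes. Over all genes, leaving out a library called 0 to 1 genes (Gm25290, a small RNA gene, without Vehicle library 4). The replicate block left both role medians as they were (-0.039 and -0.26) with 0 members called. The labels do not say whether the same number marks a pair. Same-numbered libraries deviated with r of -0.37 to 0.08, which cannot decide it, since other differences between libraries enter these values.

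On the mean keratin level, members called were 9 on deposited FPKM (7.12% of all genes in that fit), 24 on Krt5 alone (14.6%) and 13 on Krt14 alone (12.7%), all with positive slopes. On Krt5 they were 14 with a muscle term (12.8%), 12 without the gland-bearing libraries (7.21%), and 0 (0.0772%) to 25 (19.4% and 22.5%) without a library. On Krt14 they were 7 with a sex term (8.54%), 26 with a gland term (26%), and 0 (1.73%) to 18 (16% and 19.8%) without a library. On Krt15, with negative slopes, they were 1 with median ratio scaling (4.97%), 2 with a muscle term (16.1%), 11 with a gland term (12.5%), 9 without the gland-bearing libraries (11.9%), and 0 to 2 without a library (1.72% to 7.37%). The cause was not tested.

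Of 24 named members, 12 changed sign in 57 of 671 values, none called. With the basal keratin term the log2 differences became 0.14 for Aurkb, 0.026 for Ccna2, 0.073 for Ccnd1, 0.11 for Ccne1, 0.10 for Cdk2, 0.10 for Cdk4, 0.099 for E2f1, 0.049 for Mcm2, 0.081 for Pcna, 0.041 for Top2a and 0.094 for Tyms. With the neutrophil term they were 0.032 for Ccnd1, 0.17 for Ccne1, 0.0015 for Cdk4, 0.048 for E2f1, 0.0020 for Mcm2 and 0.029 for Pcna. Aurkb was 0.0039 with the muscle term, and Ccne2 was -0.21 with the sex term, -0.043 with the gland term and -0.097 without the gland-bearing libraries. Without a library, values ran from -0.14 to 0.097 for Aurkb, -0.19 to 0.0065 for Ccna2, -0.13 to 0.083 for Ccnd1, -0.30 to 0.14 for Ccne1, -0.15 to 0.13 for Ccne2, -0.16 to 0.032 for Cdk2, -0.096 to 0.056 for Cdk4, -0.28 to 0.10 for E2f1, -0.28 to 0.033 for Mcm2 and -0.11 to 0.068 for Pcna.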
